A study of Caenorhabditis elegans with 6 samples.

Results

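Heterotrimeric G proteins carry signals from seven-helix receptors into the cell, and the genes described here encode their subunits, their regulators, the enzymes they act on and the proteins that bind the receptors. An active receptor loads the alpha subunit with GTP and parts it from the beta and gamma subunits, and RGS proteins end the signal by speeding GTP hydrolysis. In worm neurons the Go protein GOA-1 holds back transmitter release, the Gq protein EGL-30 promotes it through phospholipase C and diacylglycerol, and the Gs protein GSA-1 raises cAMP, which activates protein kinase A. Receptor kinases and arrestin switch off active receptors, and alpha-arrestins, which carry arrestin domains, are known in yeast and mammals as adaptors that bring ubiquitin ligases to membrane proteins. RIS, a GABA and peptide neuron of the nematode Caenorhabditis elegans, brings on sleep-like quiescence. Levels of cAMP and kinase A activity are known to alter how much a worm rests.

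The genes were chosen by name in the authors' deposited table of RIS against whole animals. Taken were symbols beginning with arrd, arr, rgs, gpa, gpb, gpc, grk or acy and a number, and a short list of named pathway genes. Of the 12072 genes in the table, 53 matched. Genes of these families that the table lacks are not counted in the shares below, and how its genes were filtered is not stated. The RIS libraries, of which the labels list 3, came from RIS neurons of first-stage (L1) larvae of a strain with the red protein mKate under the flp-11 promoter, sorted by flow cytometry from dissociated animals into Trizol. The 3 reference libraries came from whole L1 larvae of the laboratory strain N2, frozen over liquid nitrogen. All larvae came from hypochlorite-treated adults and had hatched in M9 buffer overnight, and the labels name no drug or stress for either group. The sorting notes name AVK neurons and mCherry, where titles, source and cell type name RIS.

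The table holds 1 comparison and no values per library, which leaves the levels in each group, the depth and the spread unknown. Separate cultures are not mentioned in the labels, so the spread that the p-values measure may be technical. The sorted cells and the frozen animals also differed in preparation, so the cell type and the preparation cannot be told apart. Whether a gene is used by fewer cells of the animal or at less RNA per cell cannot be told apart in the whole larvae either. No other neurons were sorted for comparison, so a rise particular to RIS cannot be told apart from a rise shared by neurons at large. Values without a unit below, and those after "rose by", are log2 fold changes of RIS over whole larvae. A gene is called where the authors' adjusted p, the false discovery rate (FDR), was below 0.05, and intervals are approximate 95% intervals computed from the deposited F score. The labelled cell type was checked first. All 7 measured RIS markers were higher in the authors' deposited table (median log2 fold change 7.22), against 9.84% of all genes. The flp-11 promoter drove the label of the sorted strain, so the rise of the marker flp-11 is no independent check. Of 4 AVK markers 0 were called, with 1 on the lower side at the unadjusted 0.05 threshold. Their median was 0.68, and with fold changes centred on the median of all genes 2 of the 4, flp-1 (FDR = 0.0452) and unc-42 (FDR = 0.0415), were called higher. So were 16.6% of all genes. Of 10 measured markers of ciliated sensory neurons 7 were lower (2 of them at few RIS reads), against 26.4% of all genes. Lower too were 4 of 4 pharyngeal, 4 of 5 body wall muscle (hlh-1 at few RIS reads) and 5 of 5 intestinal markers. Once centred, 3 of the intestinal markers were lower, against 20.3% of all genes. The muscle myosin gene unc-54 was uncalled at 0.98 (FDR = 0.0913) by the authors' deposited table and called higher once centred (FDR = 0.0139).

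A larger share of the G protein and arrestin-domain genes than of all genes was higher in RIS. By the authors' deposited table, RIS had higher levels of 24 of the 53 members (45.3%), against a background of 9.84% of all genes. Lower in RIS were 8 members (15.1%), against 26.4% of all genes, and 21 were not called. In both directions together 36.2% of all genes were called. The median log2 fold change of the members was 1.87, and that of all genes was −0.78. With fold changes centred on this all-gene median (the median subtracted from each and the test repeated with the approximate standard error), 30 members were higher and 6 lower, against 16.6% and 20.3% of all genes. Without the arrestin-domain genes, 18 of 36 members were higher and 4 lower. Of the lower members, 5 lay at few RIS reads, a range of the table where genes hold few or no reads from RIS, the fitted fold depends on an unstated prior count and none is printed.

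**Figure D1:**
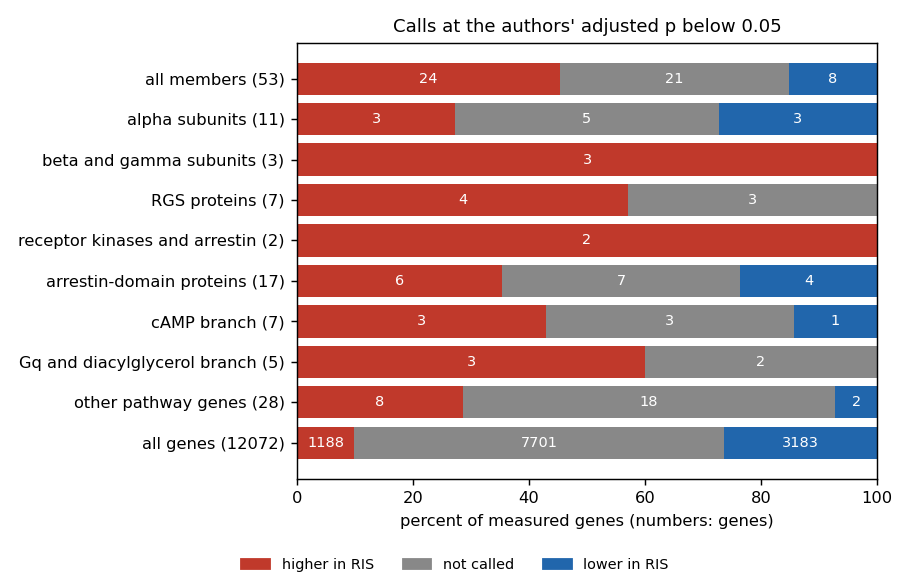
Share of measured genes (percent, horizontal axis) that were higher in RIS, not called or lower in RIS at the authors' adjusted p below 0.05, by role, with the number of genes in each bar. All 53 members hold 24 higher, 21 uncalled and 8 lower genes, against 1188, 7701 and 3183 of all 12072 genes. The exchange factor gene ric-8, which was not called, is counted among all members and has no bar of its own.

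**Figure D2:**
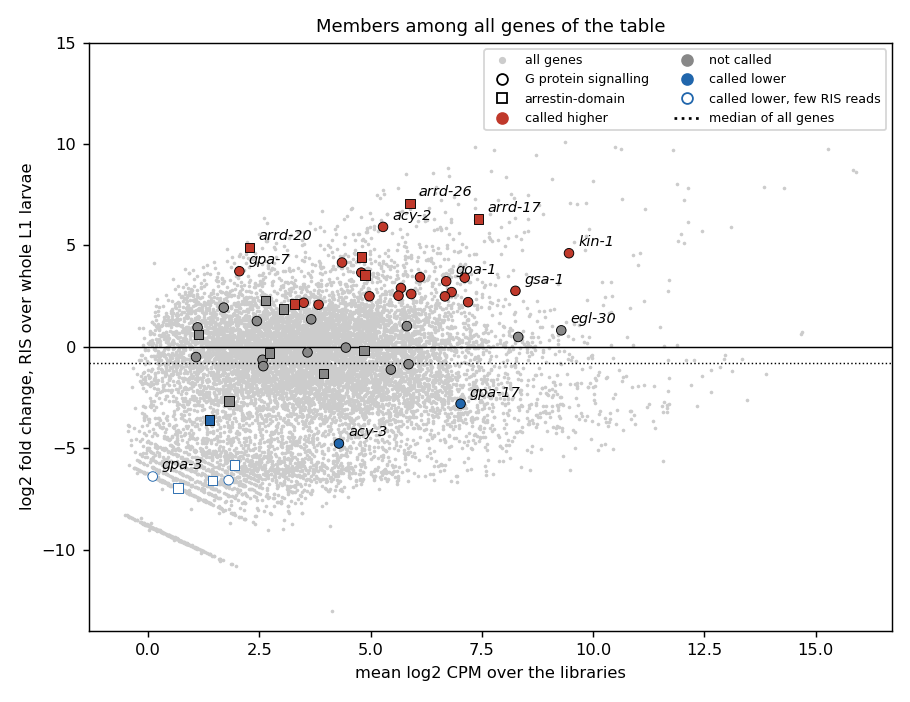
Log2 fold change of RIS over whole L1 larvae (vertical axis) against the mean log2 CPM over the libraries (horizontal axis), with all genes as grey dots, G protein signalling genes as circles and arrestin-domain genes as squares. Open blue symbols are the 5 members at few RIS reads, drawn at their fitted values. The members highest in fold change are arrd-26 (7.07), arrd-17 (6.32) and acy-2 (5.92).

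Alpha subunits were called in both directions. Of the 11 measured genes 3 were higher (27.3%) and 3 lower (27.3%), against 9.84% and 26.4% of all genes, so the share of falls is near the background. The genes of the Go and Gs proteins rose. For goa-1 (WBGene00001648, chromosome I 7522116 to 7526703) the authors' deposited table gave 3.24 (9.43-fold, interval 2.29 to 4.18, FDR = 0.00360). For gsa-1 it was 2.76 (6.79-fold, interval 1.44 to 4.09, FDR = 0.00959) by the authors' deposited table. The Gq gene egl-30 was not called there, at 0.82 (interval −0.27 to 1.90, FDR = 0.214), and once centred on the all-gene median it was called higher (1.59, FDR = 0.0330). The interval of egl-30 lies below that of goa-1, but the difference between the genes was not tested.

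Of the 8 remaining alpha subunits, named gpa, 1 was higher (12.5%) and 3 lower (37.5%), against 9.84% and 26.4% of all genes. Their median of −0.79 was close to that of all genes (−0.78). Many gpa genes are known from chemosensory neurons, where gpa-3 takes part in the response to dauer pheromone. In the authors' deposited table gpa-3 (FDR = 0.00680) and gpa-15 (FDR = 0.0181) fell to few RIS reads. Beside them, 7 of 10 markers of ciliated sensory neurons were lower as well, and the part of such cells in these values was not tested. The more abundant gpa-17 fell by 2.80 on the log2 scale (6.99-fold, interval −4.44 to −1.17, FDR = 0.0187) by the authors' deposited table, a call that ended once centred on the all-gene median (FDR = 0.0574). The gpa gene that rose was gpa-7, at 3.73 with a wide interval of 0.95 to 6.51 (FDR = 0.0451) by the authors' deposited table. Without genes at few RIS reads, gpa-7 lost its call, since removing so many small p-values makes the adjustment stricter. The other 4, which include the G12 gene gpa-12, lay between −0.95 and 0.96 (FDR 0.525 to 0.675) in the authors' deposited table. Over the 11 alpha subunits the median, −0.50, becomes positive once centred on that of all genes (0.28).

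Alpha subunits also differed in abundance per length. The mean level over the libraries, divided by the exon length in the WBcel235 annotation, was 186 CPM per kb for gsa-1, 159 for egl-30, 97.9 for gpa-17 and 51.4 for goa-1. The 7 others lay between 0.682 CPM per kb (gpa-3) and 4.54 CPM per kb (gpa-12). These are means over RIS and whole-larva libraries together, with no spread, and the order need not hold within RIS, where goa-1 was higher and gpa-17 lower than in whole larvae.

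Beta and gamma subunits rose together. The beta subunit gene gpb-1, the main partner of the alpha subunits, reached 3.41 (10.6-fold, interval 2.28 to 4.54, FDR = 0.00457) by the authors' deposited table. For gpb-2, the G beta 5 relative that pairs with the RGS proteins EGL-10 and EAT-16, the authors' deposited table gave 2.50 (5.64-fold, interval 1.27 to 3.72, FDR = 0.0103). The gamma subunit gene gpc-2 rose by 2.08 (4.22-fold, interval 0.51 to 3.64, FDR = 0.0469) by the authors' deposited table, and its call was lost without genes at few RIS reads. All 3 measured genes were higher, against 9.84% of all genes, and also once centred, against 16.6% of all genes. The gene gpc-1 was not analysed here.

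RGS genes rose in part. In the authors' deposited table the largest changes were those of rgs-1 (4.16, 17.8-fold, interval 2.81 to 5.50, FDR = 0.00439) and rgs-6 (3.66, 12.7-fold, interval 2.49 to 4.83, FDR = 0.00428). RGS-1 and RGS-2 are known to end GOA-1 signalling, and rgs-2 rose by 2.90 (7.47-fold, FDR = 0.0102) by the authors' deposited table. The RGS protein EAT-16 acts on EGL-30, and for eat-16 the authors' deposited table gave 2.49 (5.62-fold, FDR = 0.00702). Thus 4 of 7 RGS genes were higher (57.1%) and 0 lower, against 9.84% and 26.4% of all genes. At the unadjusted 0.05 threshold 0 were lower too, against 3963 of all 12072 genes. The uncalled ones were rgs-3 (−0.27, interval −3.46 to 2.92), known from sensory neurons, rgs-5 (−0.85, interval −2.21 to 0.50) and rgs-7 (−1.12, interval −2.77 to 0.52) in the authors' deposited table. The exchange factor gene ric-8, whose product helps to activate alpha subunits, was uncalled by the authors' deposited table (1.36, interval −0.65 to 3.36, FDR = 0.258). The RGS gene egl-10 was not analysed here.

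Both measured genes that act on active receptors rose, where 9.84% of all genes were called higher. The authors' deposited table gave 2.52 for the receptor kinase gene grk-1 (5.75-fold, interval 1.48 to 3.56, FDR = 0.00661). For arr-1, the beta-arrestin gene of the worm, it was 2.18 (4.52-fold, interval 0.73 to 3.62, FDR = 0.0301) by the authors' deposited table. The kinase gene grk-2 was not analysed here.

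The cAMP branch ranged widely. Adenylyl cyclases make cAMP, and their 4 genes went apart. The authors' deposited table gave acy-2 (WBGene00000069, chromosome V 5976029 to 5981513) a log2 ratio of 5.92 (60.4-fold, interval 4.48 to 7.35, FDR = 0.00250), rank 91 of the 12072 genes by fold change. In contrast acy-3 fell by 4.77 on the log2 scale (27.2-fold, interval −7.20 to −2.33, FDR = 0.0119) by the authors' deposited table. Between them lay acy-4 (1.27, FDR = 0.168) and acy-1 (1.02, FDR = 0.146), uncalled in the authors' deposited table but called higher once centred (FDR = 0.0432 and 0.0262). Downstream, the kinase A genes rose. The catalytic subunit gene kin-1 (WBGene00002189, chromosome I 14919533 to 14951924) had 4.62 (24.5-fold, interval 3.66 to 5.58, FDR = 0.00169) at a mean of 703 CPM over the libraries in the authors' deposited table. For the regulatory subunit gene kin-2 the authors' deposited table gave 2.21 (4.61-fold, interval 1.26 to 3.16, FDR = 0.00714). The intervals of kin-1 and kin-2 do not overlap, and the difference between the genes was not tested. The phosphodiesterase gene pde-4, which breaks cAMP down, was uncalled by the authors' deposited table (0.49, interval −0.74 to 1.72, FDR = 0.511). Of these 7 genes 3 were higher (42.9%) and 1 lower (14.3%), against 9.84% and 26.4% of all genes. Once centred, 5 were higher and 1 lower, against 16.6% and 20.3% of all genes.

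The Gq and diacylglycerol branch had rises and no falls among its calls. In the authors' deposited table egl-8, the phospholipase C beta gene downstream of EGL-30, rose by 2.70 (6.50-fold, interval 1.77 to 3.63, FDR = 0.00495). Diacylglycerol activates protein kinases C, and the calcium-independent kinase genes tpa-1 (3.44, 10.8-fold, interval 2.47 to 4.40, FDR = 0.00344) and pkc-1 (2.61, 6.09-fold, interval 1.67 to 3.55, FDR = 0.00527) rose in the authors' deposited table. The calcium-dependent kinase gene pkc-2 was uncalled there, at −0.04 (interval −1.19 to 1.12, FDR = 0.964). The kinase gene dgk-1, whose product removes diacylglycerol, lay at 1.94 and missed the threshold (interval 0.31 to 3.56, FDR = 0.0660) by the authors' deposited table, but once centred it was called higher (FDR = 0.0213). So 3 of 5 genes were higher (60%) and 0 lower, against 9.84% and 26.4% of all genes. At an unadjusted p below 0.05, 4 were higher and 0 lower, against 1600 and 3963 of all 12072 genes.

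**Figure D3:**
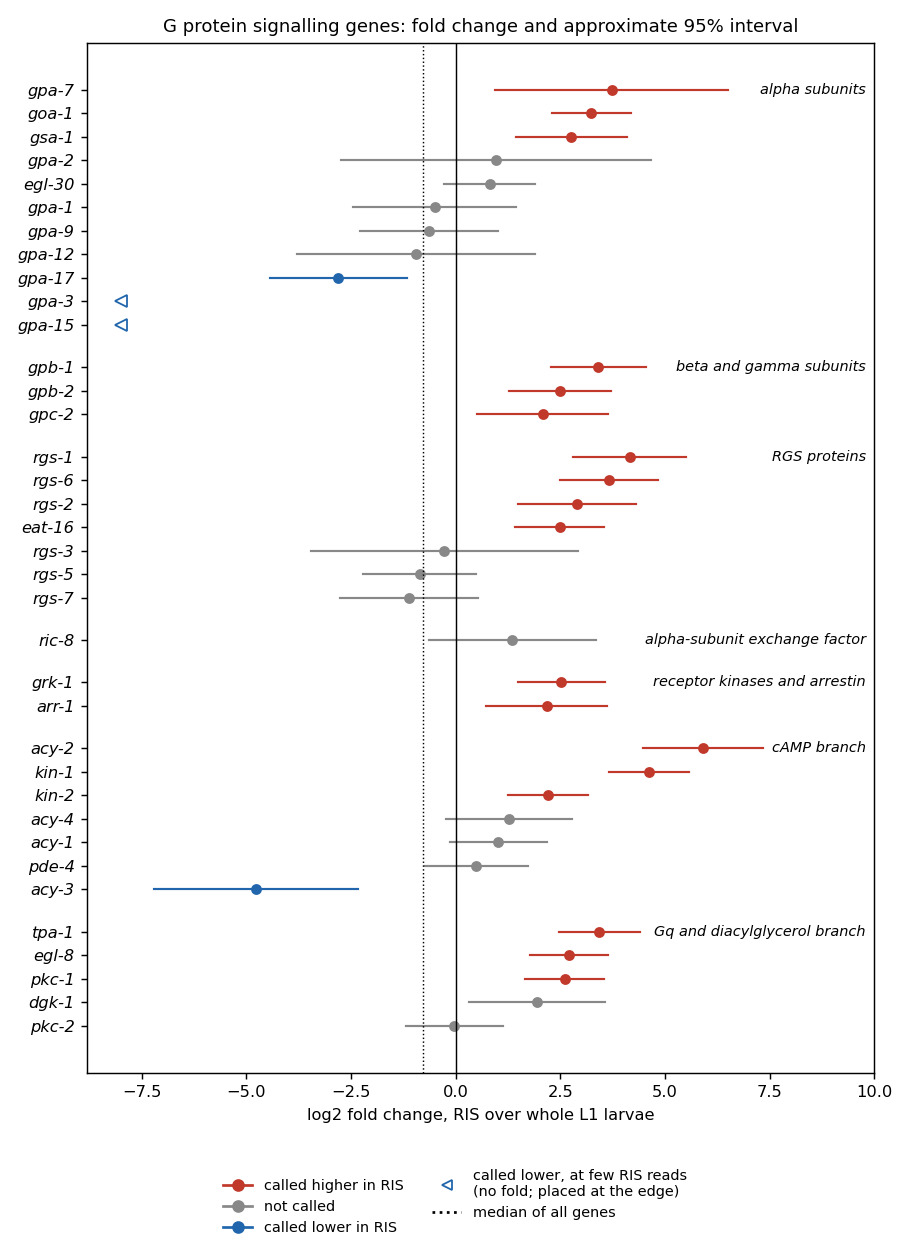
Log2 fold change of RIS over whole L1 larvae (horizontal axis) with its approximate 95% interval for the 36 G protein signalling genes, grouped by role from top to bottom. Red marks genes called higher, grey uncalled and blue lower ones, open triangles mark gpa-3 and gpa-15 at few RIS reads, and the dotted line is the median of all genes (−0.78). All beta and gamma subunits lie above 0, and the alpha subunits spread over both sides.

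Among the members, arrestin-domain genes held the largest rises. Of the 17 genes 6 were higher (35.3%, against 9.84% of all genes) and 4 lower (23.5%, near the 26.4% of all genes). The authors' deposited table gave arrd-26 (WBGene00019873, chromosome IV 2066200 to 2071741) a log2 ratio of 7.07 (134-fold, interval 5.96 to 8.18, FDR = 0.00108), rank 42 of the 12072 genes. The second was arrd-17 (WBGene00011732, chromosome III 13626994 to 13630808), at 6.32 (79.8-fold, interval 4.97 to 7.66, FDR = 0.00169) and a mean of 172 CPM over the libraries in the authors' deposited table. Both lie in the range of the RIS markers, of which unc-46 had the smallest fold change (5.33, rank 137 of the 12072 genes) in the authors' deposited table. The member acy-2 (5.92) and, outside the naming rule, pde-3 (7.07) lie in that range too. Per exon length, arrd-17 had a mean level of 120 CPM per kb and arrd-26 one of 41.7 CPM per kb over all libraries.

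Further rises were smaller. In the authors' deposited table arrd-15 rose by 4.42 (21.4-fold, interval 2.95 to 5.89, FDR = 0.00463) and arrd-13 by 3.55 (11.7-fold, interval 2.08 to 5.02, FDR = 0.00664). The gene arrd-20, which the table lists as a pseudogene, was at 4.89 (interval 2.99 to 6.79, FDR = 0.00609) by the authors' deposited table, with a low mean of 4.86 CPM. It lies on chromosome V within 70178 bases of arrd-19 and 22363 bases of arrd-22. Whether neighbouring genes are alike enough to share reads was not examined. How shared reads were counted is not stated either, so the value of arrd-20 is uncertain. The same holds for arrd-18, which was close to the threshold (2.11, interval 0.50 to 3.72, FDR = 0.0488) by the authors' deposited table and lost its call without genes at few RIS reads.

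Neighbouring arrestin-domain genes were not all called alike. On chromosome V arrd-18 and arrd-19 lie 1168 bases apart, and arrd-18 was called higher while arrd-19 (−0.29, interval −1.99 to 1.40) was uncalled by the authors' deposited table. On chromosome II 2140 bases part arrd-14 from arrd-13, and arrd-13 rose while arrd-14 (−1.31, interval −3.17 to 0.55) was uncalled by the authors' deposited table. The differences within these pairs were not tested.

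On the other side, arrd-28 (FDR = 0.00676), arrd-10 (FDR = 0.00744) and arrd-23 (FDR = 0.00959) fell to few RIS reads in the authors' deposited table. They were scarce in the libraries, with means of 1.59, 2.73 and 3.85 CPM. The scarce arrd-6 fell by 3.60 on the log2 scale (interval −6.13 to −1.08, FDR = 0.0362) by the authors' deposited table, and once centred its call ended (FDR = 0.0787). Uncalled members past an unadjusted p of 0.05 were arrd-16 (2.30, FDR = 0.0965), arrd-22 (1.87, FDR = 0.0784) and arrd-7 (−2.66, FDR = 0.101) by the authors' deposited table. The first 2 were called higher once centred (FDR = 0.0388 and 0.0248). The other 4 uncalled genes lay between −1.31 and 0.61 (FDR 0.241 to 0.817) in the authors' deposited table. Once centred, 8 of the 17 were higher and 3 lower, against 16.6% and 20.3% of all genes. The median of the 17 as deposited was 0.61.

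**Figure D4:**
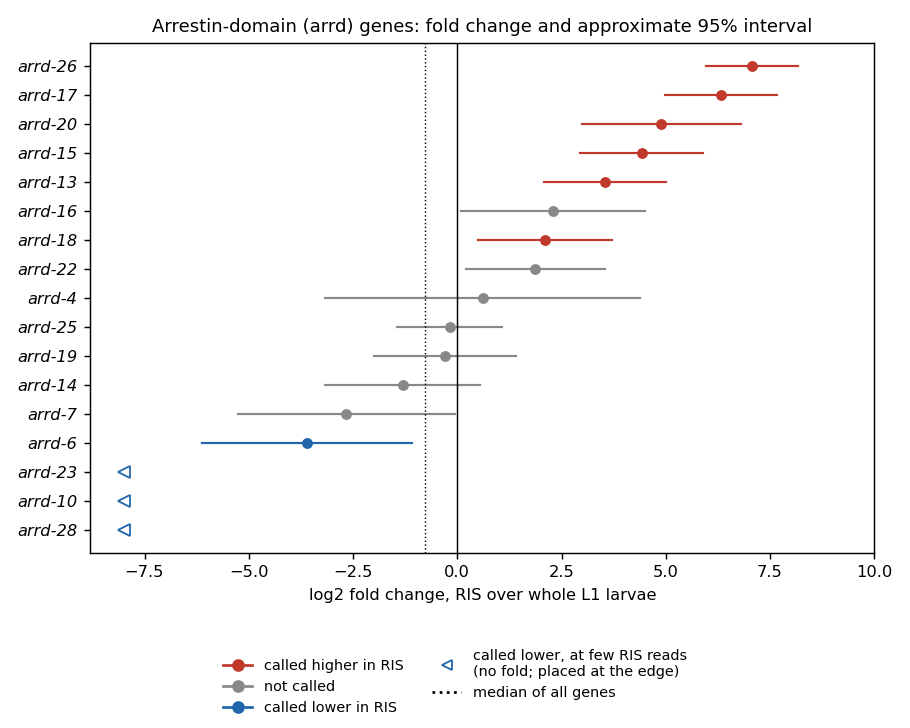
Log2 fold change of RIS over whole L1 larvae (horizontal axis) with its approximate 95% interval for the 17 arrestin-domain genes, in order of fold change. Red marks genes called higher, grey uncalled and blue lower ones, open triangles mark the 3 genes at few RIS reads, and the dotted line is the median of all genes (−0.78). The genes arrd-26 (7.07) and arrd-17 (6.32) stand at the top.

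Other genes of the pathway, outside the naming rule, were counted beside the members. Of 28 measured genes 8 were higher (28.6%) and 2 lower (7.14%), against 9.84% and 26.4% of all genes, with a median of 1.08. In the authors' deposited table the phosphodiesterase gene pde-3 rose most, by 7.07 (134-fold, interval 5.75 to 8.38, FDR = 0.00143). The kinase A anchoring protein gene akap-1 (3.81, FDR = 0.00648) rose as well in the authors' deposited table. The phospholipase C gamma gene plc-3 was higher in the authors' deposited table (3.38, FDR = 0.00355). The priming factor gene unc-13, whose product binds diacylglycerol, rose by 3.67 (FDR = 0.00268) by the authors' deposited table. Of the protein kinase D genes dkf-2 rose by 2.95 (FDR = 0.00415) and dkf-1 was uncalled at −0.80 (FDR = 0.676) in the authors' deposited table. The phospholipase gene plc-2 fell by 6.08 on the log2 scale (interval −8.09 to −4.08, FDR = 0.00451) and the IP3 receptor gene itr-1 by 2.75 (FDR = 0.00929) by the authors' deposited table.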

How the data were processed

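RNA sequencing of sorted RIS neurons and of whole L1 larvae was deposited as 1 table of 12072 genes. Per the file headers the authors give, for each gene, the mean log2 CPM and log2 fold change, the F score, and the p-value with its false discovery rate (FDR), which are the columns of edgeR's quasi-likelihood test. For the aligner, counter, strand setting, genome build, annotation, filters, prior count and depth of each library, nothing is given in the sources used here, so the precision that depth gives is unknown. Columns of per-library values left unused number 0.

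The members and lists were chosen with earlier results of these data known. Calls use the authors' adjusted p below 0.05 over all genes. An approximate standard error was had by dividing the size of the log2 fold change by the root of F. Denominator degrees of freedom, recovered from F and p, were 6.76, and 5.76 for 170 genes without RIS reads. That loss of 1 is what the test gives for a group of 2 libraries without reads, so the number of RIS libraries in the fit, 3 by the labels, is uncertain. Genes up to 5 log2 units above those 170 on the log2 fold change and log2 CPM added together, and lower by over 3 log2 units, are called genes at few RIS reads (1020 genes, 1011 called lower). Values there lie on discrete steps.

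All members called are named. Uncalled ones are named in groups of up to 8 genes, and in larger groups where the unadjusted p was below 0.05 or expression among the top 3 of the group. Of the other pathway genes up to 6 per direction by adjusted p are named, of which 1 is not reported here. Named outside this rule, after their values were seen, were arrd-14, arrd-19, gpa-1, gpa-9, gpa-12 and dkf-1. Of the 53 identifiers, 53 were found on the same chromosome in Ensembl release 115 of WBcel235 and 11 had the same start and end, so coordinates follow the table, which names no build. The alternatives tried were an FDR below 0.01, a minimum fold of 2, a filter at median expression, centring on the median of all genes, removal of genes at few RIS reads, and recomputed Benjamini-Hochberg or Benjamini-Yekutieli adjustment. Functions were tested on simulated data. Protein and promoter sequences were not used here. The tools were matplotlib 3.10.9, scipy 1.17.1, pandas 2.3.3 and numpy 2.4.6 under Python 3.11.15.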

Additional observations from a re-analysis of the deposited data

How the results depend on the processing

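Of the 53 members, 24 were called higher and 8 lower. At an adjusted p below 0.01, 18 stayed higher and 4 lower. Among the 32 members at or above median expression 20 were higher and 2 lower, against 917 and 1431 of the 6036 such genes. Among the 21 members below it 4 were higher and 6 lower (median −0.29), against 271 and 1752 of 6036 genes. These counts use the authors' adjusted p over all genes. Expression is the mean over both groups, so a gene high in RIS can pass through its RIS level. Without genes at few RIS reads 21 were higher and 3 lower, since 5 lower members were then not tested and gpa-7, arrd-18 and gpc-2 lost their calls. Under Benjamini-Yekutieli adjustment, which is stricter, 11 were higher and 0 lower (9 lay lower at an unadjusted p below 0.05). Of the other pathway genes, 8 higher and 2 lower, 4 and 1 were left under it. The share of all genes called was not computed under it, at an adjusted p below 0.01 or without genes at few RIS reads. The counts at these settings therefore cannot be set against a background. With fold changes centred on the all-gene median 13 of the 28 were higher, against 16.6% of all genes. The median of the members was 2.65 after that centring, against 1.87, a move set by the shift itself. Centring added calls on dgk-1, egl-30, arrd-16, arrd-22, acy-4 and acy-1 and ended those on gpa-17 and arrd-6. A fold of at least 2 and a recomputed Benjamini-Hochberg adjustment changed no member's call. No paired analysis was possible because values per library are not in the table, and for the same reason no replicate could be left out and no other count model run. Fold changes of scarce genes, such as gpa-7, arrd-6 and arrd-7, have wide intervals and rest on an unknown number of reads.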

Other observations

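Exons of 17 of the 53 members share bases with exons of another gene in the WBcel235 annotation, and whether the counting used strand is not given. The longest shared stretch lies in gpa-9, where the gene F56H9.8 on the opposite strand covers 36.8% of the exon length, followed by gpa-1, where T19C4.5 covers 18.9%. Both were uncalled. Among called members the shared part was smaller. The antisense gene F19C6.8 covers 7.85% of grk-1, and F10C2.3, which fell by 6.07 on the log2 scale (FDR = 0.00482) in the authors' deposited table, covers 5.73% of pkc-1. In arrd-10 the share covered by F58G1.7 is 6.01%, and in rgs-2 F16H9.6, on the same strand, covers 5.68%. For gpa-7 the overlapping gene is rfk-1, which covers 2.90% and fell by 6.32 (FDR = 0.00826) in the authors' deposited table.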
